A study of Homo sapiens with 4 samples.

Results

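The genes described here are 10 components of the NOTCH pathway: the receptor genes NOTCH1, NOTCH2 and NOTCH3, the ligand genes JAG1, JAG2 and DLL1, the protease genes ADAM10 and ADAM17, and the target genes HES1 and HEY1. They were picked by gene symbol from a table of 25369 genes, and all 10 were found in it. The samples were 2 replicates of H226 with an inducible hairpin against p63 (shp63) and 2 replicates of H226 with an inducible non-targeting hairpin (shControl). H226 is an established human line labelled as lung squamous cell carcinoma. Every sample, control samples included, was kept for 6 days in 1 µg/mL doxycycline, the drug that switches the hairpins on. The labels name 1 construct per group, so the effect of a hairpin and of its target cannot be told apart, and whether each line is a clone or a pool is not given in the sources used here.

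NOTCH receptors sit on the cell surface and are activated by Jagged or Delta-like ligands on neighbouring cells. Ligand pull exposes a site that ADAM10 cuts, and gamma-secretase then releases the intracellular domain, which joins RBPJ and Mastermind proteins on DNA and switches on HES and HEY repressor genes. In stratified epithelium p63 is a transcription factor of basal cells, NOTCH signalling promotes their exit from the basal layer, and each is known to influence the other.

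The DNA that links the pathway to its targets is short. RBPJ binds sequences built around TGGGAA, and the full form searched here was GTGGGAA, which contains it. Both were searched on both strands of RefSeq promoters that run from 250 bases before to 50 bases after the gene start (GRCh38.p14). Of 35116 promoters, 24.0% held TGGGAA at least once, 3.80% held it at least 2 times, and 6.25% held GTGGGAA. Among the members 8 had a promoter entry, and 1 of them, HES1, held a match. Of the 8 other HES, HEY and NRARP genes, all had an entry and 4 held a match (HES4, HES5, HEY2 and HEYL). The whole HES1 promoter is printed because HES1 is the target gene with the most reads among the members. It lies at chr3:194135898-194136197 on the plus strand, and its matches begin at bases -84 and -70 from the start. The stretch of HES4 at chr1:1000148-1000193 on the minus strand and the stretch of HES5 at chr1:2530318-2530507 on the minus strand are printed beside it because these genes hold the same letters and had other read counts. The capitals mark TGGGAA or its reverse complement.
HES1: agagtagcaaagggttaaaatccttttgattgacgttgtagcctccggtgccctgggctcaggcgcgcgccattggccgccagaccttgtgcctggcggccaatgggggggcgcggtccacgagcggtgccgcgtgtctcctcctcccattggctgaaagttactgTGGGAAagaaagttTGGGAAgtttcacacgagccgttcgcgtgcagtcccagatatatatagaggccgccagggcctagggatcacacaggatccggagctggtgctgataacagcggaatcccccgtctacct
HES4: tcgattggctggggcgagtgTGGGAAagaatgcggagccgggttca
HES5: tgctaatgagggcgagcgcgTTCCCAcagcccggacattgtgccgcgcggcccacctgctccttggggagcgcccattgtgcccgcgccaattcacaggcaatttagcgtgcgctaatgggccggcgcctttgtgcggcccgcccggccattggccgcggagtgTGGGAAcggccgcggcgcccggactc
A match is a description of the letters and not a measured binding site. HES1 was called higher in shp63, HES4 did not pass the threshold, and HES5 had 0 reads in all 4 libraries.

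The libraries held 51926832 to 53924761 counted reads, so 1 CPM (counts scaled to library size with TMM factors) rested on 50 to 55 reads. TP63, the targeted gene, had 1596 and 1530 reads in shp63 and 7533 and 7364 reads in shControl. Its mean was 30.6 ± 0.116 CPM in shp63 and 136 ± 0.798 CPM in shControl (SD, n = 2 each), a log2 fold change of -2.16 (SE 0.041). Of 7 squamous and basal markers 6 were lower and 1, KRT6A, higher. Their summed level was 3249 to 3443 CPM in shp63 and 5141 to 5249 CPM in shControl. Most of that sum was KRT17, which was 1.27-fold lower. KRT5, KRT14, DSG3 and SFN were 3.04-fold to 5.12-fold lower, and all 5 simple epithelial markers were higher. Of the mesothelial markers WT1, CALB2 and LRRN4 had 8 reads or fewer in each library, while MSLN and UPK3B were both higher in shp63. MSLN was at 330 ± 5.99 CPM in shp63 and 132 ± 2.86 CPM in shControl. UPK3B was at 303 ± 10.4 CPM in shp63 and 215 ± 16.3 CPM in shControl. Of 6 leukocyte markers 3 were higher, at a summed 74.25 to 78.33 CPM in shp63 and 12.2 to 13.58 CPM in shControl, with PTPRC at 8 reads or fewer. Of 5 endothelial markers 2 were higher and 1 lower, at a summed 189.9 to 191.5 CPM in shp63 and 59.91 to 65.0 CPM in shControl, most of it CDH5, with KDR at 1 read or fewer. The part of these marker levels in the results below was not tested. In bulk RNA, fewer cells of a type and less RNA per cell cannot be told apart.

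The 6 receptor and ligand transcripts among the members were lower in shp63, while ADAM10 and both target genes were higher. By edgeR's quasi-likelihood test with Benjamini-Hochberg adjustment over all 14901 tested genes, at an adjusted p under 0.05, all 10 members were called, 7 lower and 3 higher, with the call of HEY1 lost under some settings given below. That count has to be read against the background, since 74.0% of all tested genes were called in this comparison, 37.1% lower and 36.9% higher. The 2 groups did not overlap for any member, and they did not overlap for 86.4% of all tested genes. The members' median log2 fold change was -0.29, against -0.01 over all tested genes. A stricter test for a change beyond 1.5-fold (glmTreat) called 4 members, NOTCH1, DLL1 and JAG1 lower and ADAM10 higher, where it called 22.7% of all tested genes (1491 lower and 1894 higher). Each p-value rests on how far apart the 2 replicates of a group were, with spread shared across genes. The sample titles number the replicates and do not say whether they were grown separately.

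**Figure D1:**
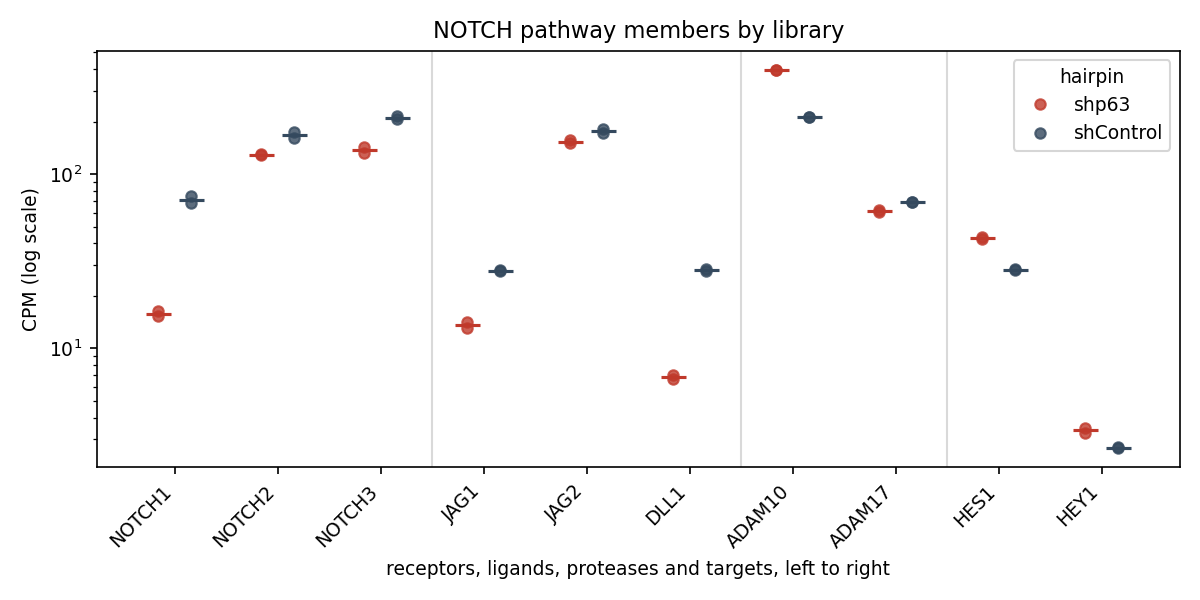
CPM on a log axis for each member in the 2 shp63 libraries (red, left) and the 2 shControl libraries (dark, right), with a short line at each mean. The wide gaps are those of NOTCH1, at 15.4 and 16.3 CPM in shp63 and 74.6 and 68.0 CPM in shControl, and of DLL1, and ADAM10 stands highest of all members in shp63.

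NOTCH1 showed the largest fall of the 10 members. This receptor gene, which acts as a tumour suppressor in squamous epithelia, lies on chromosome 9 from 139388885 to 139440500 on the minus strand (GRCh37, as all gene positions here), and its canonical transcript has 34 exons. NOTCH1 had 799 and 817 reads in shp63 and 4138 and 3658 reads in shControl. These reads gave 15.4 and 16.3 CPM in shp63 and 74.6 and 68.0 CPM in shControl. Both shp63 libraries were far under both shControl libraries, a gap much wider than that between replicates. The log2 fold change was -2.17 (SE 0.0496), 4.51-fold lower, with an adjusted p of 2.43e-19 (edgeR). It was the 179th largest fall among the 14901 tested genes, close to that of TP63 itself.

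NOTCH2 and NOTCH3, the other receptor genes with appreciable reads, fell much less. NOTCH3, on chromosome 19 from 15269849 to 15311806 on the minus strand, had 144 and 133 CPM in shp63 and 215 and 206 CPM in shControl. NOTCH2, on chromosome 1 from 120454176 to 120643366 on the minus strand, had 128 and 131 CPM in shp63 and 174 and 160 CPM in shControl. For both genes every shp63 library was lower than every shControl library. The log2 fold change was -0.61 (SE 0.0354) for NOTCH3 and -0.37 (SE 0.0353) for NOTCH2, with adjusted p of 3.70e-12 and 5.11e-09 (edgeR), and neither passed the test beyond 1.5-fold. NOTCH2 has a near-identical partial copy, NOTCH2NL, so the division of reads between them depends on how the authors' counting treated shared reads. NOTCH2NL was at 30.7 ± 0.100 CPM in shp63 and 25.8 ± 1.09 CPM in shControl (SD, n = 2 each), and with its reads added NOTCH2 had a log2 fold change of -0.27 (adjusted p = 3.32e-07, edgeR).

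The 3 member ligand transcripts fell too, and of these DLL1 most. DLL1 encodes a Delta-like ligand and lies on chromosome 6 from 170591294 to 170615653 on the minus strand. It had 6.63 and 7.04 CPM in shp63 and 27.7 and 28.6 CPM in shControl. Its level in shp63 was thus well clear of that in shControl, with a log2 fold change of -2.04 (SE 0.0631), 4.12-fold lower, and an adjusted p of 9.17e-18 (edgeR), the 218th largest fall. DLL1 shares 370 exonic bases with FAM120B on the opposite strand, and FAM120B itself was at 33.5 ± 1.17 CPM in shp63 and 32.1 ± 0.138 CPM in shControl (SD, n = 2 each; adjusted p = 0.195, edgeR).

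The Jagged genes divided by size of change. JAG1, on chromosome 20 from 10618332 to 10654647 on the minus strand, had 740 and 652 reads in shp63 and 1532 and 1505 reads in shControl, with means of 13.6 ± 0.863 CPM in shp63 and 27.8 ± 0.259 CPM in shControl (SD, n = 2 each). JAG2, on chromosome 14 from 105607319 to 105635161 on the minus strand, had 156 and 150 CPM in shp63 and 172 and 181 CPM in shControl. Both genes were lower in both shp63 libraries, but JAG2 by little. The log2 fold change was -1.03 (SE 0.0567, 2.04-fold lower, adjusted p = 2.84e-13) for JAG1 and -0.21 (SE 0.0322, 1.16-fold lower, adjusted p = 5.00e-06) for JAG2 (edgeR).

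Of the proteases, ADAM10 rose and ADAM17 fell slightly. ADAM10 makes the ligand-dependent cut in NOTCH receptors and also sheds other surface proteins. Its gene lies on chromosome 15 from 58881008 to 59041990 on the minus strand. ADAM10 had 396 and 397 CPM in shp63 and 211 and 211 CPM in shControl. The replicates almost coincided, and the groups stood far apart, with a log2 fold change of 0.91 (SE 0.0294), 1.88-fold higher, and an adjusted p of 2.12e-17 (edgeR). ADAM17, a related sheddase best known for releasing TNF and EGFR ligands, lies on chromosome 2 from 9628615 to 9696861 on the minus strand. It had 62.0 and 60.7 CPM in shp63 and 69.3 and 69.1 CPM in shControl. That difference exceeded the replicate spread but was small, with a log2 fold change of -0.17 (SE 0.0407) and an adjusted p of 0.000631 (edgeR). ADAM17 shares 1323 of the 4391 bases of its canonical transcript with IAH1 on the opposite strand, and the strand setting of the counting is not given in the sources used here. IAH1 moved the other way, at 44.6 ± 0.305 CPM in shp63 and 40.0 ± 0.837 CPM in shControl (SD, n = 2 each; log2 fold change 0.16).

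Both target genes among the members were higher, unlike the member receptor genes. HES1, a transcriptional repressor and a direct NOTCH target in many tissues, is encoded on the plus strand of chromosome 3, between 193853937 and 193856521. HES1 had 43.3 and 42.1 CPM in shp63 and 28.2 and 28.4 CPM in shControl. Both shp63 libraries were above both shControl libraries, with a log2 fold change of 0.59 (SE 0.0400), 1.51-fold higher, and an adjusted p of 9.81e-12 (edgeR). HES1 did not pass the test beyond 1.5-fold (adjusted p = 0.612, glmTreat).

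HEY1, a related repressor on chromosome 8 from 80674606 to 80680092 on the minus strand, was the least abundant member. It had 171 and 175 reads in shp63 and 148 and 145 reads in shControl. These were 3.29 and 3.49 CPM in shp63 and 2.67 and 2.70 CPM in shControl, higher in both shp63 libraries by a small margin. The log2 fold change was 0.34 (SE 0.123) with an adjusted p of 0.0181 (edgeR). That call was lost with DESeq2 (adjusted p = 0.175) and with library totals as the scale (adjusted p = 0.074, edgeR). It was also lost without shp63 replicate 2 (adjusted p = 0.101), without shControl replicate 1 (adjusted p = 0.0654) and without shControl replicate 2 (adjusted p = 0.0544, all edgeR).

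**Figure D2:**
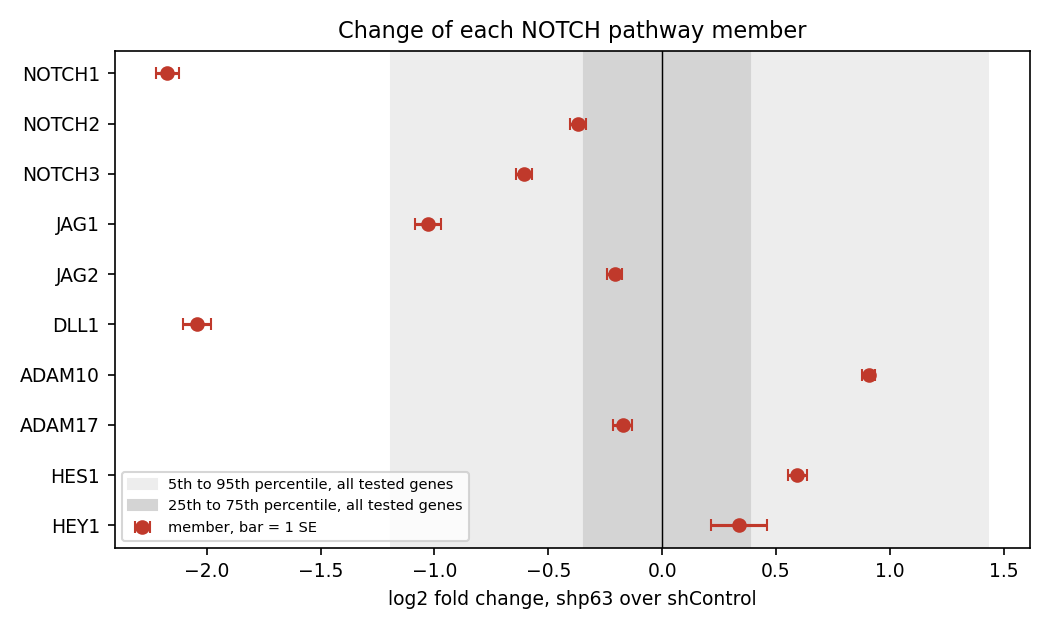
Log2 fold change of each member, shp63 over shControl, with bars of 1 SE, over grey bands for the central ranges of all 14901 tested genes. NOTCH1 (-2.17) and DLL1 (-2.04) lie below the 5th percentile of all genes (-1.19), no member lies above the 95th percentile (1.43), and JAG2 and ADAM17 lie between the 25th (-0.35) and 75th (0.38) percentiles, as does HEY1.

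Since the member receptors and ligands fell by unequal amounts, their makeup shifted. Levels were compared between genes as CPM per kb of the canonical transcript in GENCODE 44, which need not be the annotation the authors counted with. NOTCH1 made up 5.46% and 5.99% of the CPM per kb summed over the member receptors in shp63 and 16.3% and 15.9% in shControl. NOTCH3 was the largest receptor component in every library, with 56.3% and 53.8% in shp63 and 51.9% and 52.8% in shControl. NOTCH2 made up 38.2% and 40.2% in shp63 and 31.8% and 31.3% in shControl. The NOTCH1 share was thus lower in both shp63 libraries, and the other receptors took correspondingly larger shares of a smaller total, 29.4 and 28.4 CPM per kb in shp63 and 47.8 and 44.9 CPM per kb in shControl.

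Among the member ligands JAG2 dominated in every library and more so in shp63. JAG2 made up 86.7% and 86.5% of the CPM per kb summed over the member ligands in shp63 and 71.3% and 71.9% in shControl. The other ligand genes given below (DLL4, DLK2 and DNER among them) are not in this sum. DLL1 made up 5.63% and 6.21% in shp63 and 17.6% and 17.3% in shControl. The share of DLL1 was thus lower in both shp63 libraries, and that of JAG1 was lower by less, at 7.68% and 7.30% in shp63 and 11.1% and 10.8% in shControl.

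**Figure D3:**
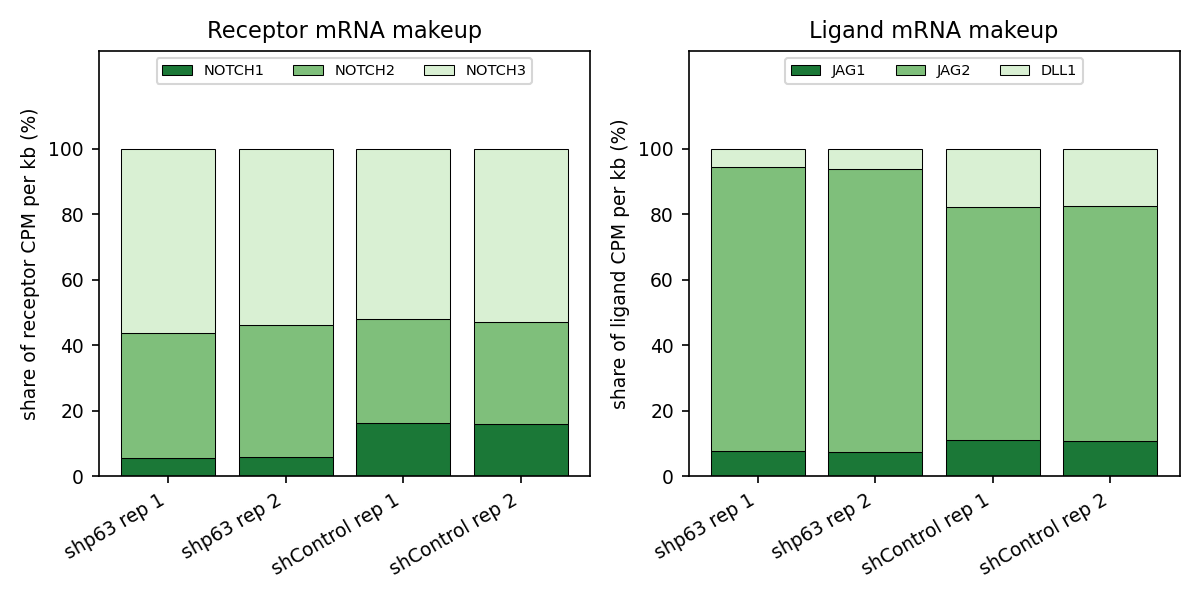
Stacked bars of the share of each member receptor (left panel) and each member ligand (right panel) in CPM per kb, as a percentage. The bars are the 2 shp63 libraries and the 2 shControl libraries, and each share is of the sum over the members shown. The NOTCH1 share is 5.46% and 5.99% in shp63 and 16.3% and 15.9% in shControl, and the JAG2 share is 86.7% and 86.5% in shp63 and 71.3% and 71.9% in shControl.

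Ratios of CPM within a library compare how 2 members moved, and gene length cancels in their difference between groups. The log2 ratio of NOTCH1 to NOTCH2 averaged -3.03 ± 0.0429 in shp63 and -1.23 ± 0.0125 in shControl (SD, n = 2 each), a difference of -1.80. The log2 ratio of NOTCH1 to NOTCH3 differed by -1.56 and that of NOTCH3 to NOTCH2 by -0.24, shp63 minus shControl. For the ligands, JAG1 to JAG2 differed by -0.82 and DLL1 to JAG1 by -1.01. The ratio of ADAM10 to ADAM17 differed by 1.08 and that of HES1 to HEY1 by 0.26. In all 7 ratios the shp63 libraries did not overlap the shControl libraries. Of all single tested genes 86.4% did not overlap either, and ratios of other gene pairs were not examined. The exact two-sided permutation test of each ratio gave p = 0.333, also after Benjamini-Hochberg adjustment over the 7, which is the smallest p that the 6 splits of 2 against 2 allow.

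The order of the members by CPM per kb also differed between the groups. In shp63 ADAM10 stood highest at 35.5 ± 0.0996, followed by HES1 at 27.1 ± 0.541 and JAG2 at 26.5 ± 0.758 (SD, n = 2), and the libraries of the last 2 overlapped. NOTCH3, ADAM17 and NOTCH2 came next, and JAG1, DLL1, NOTCH1 and HEY1 were lowest, between 2.29 and 1.54. In shControl JAG2 stood highest at 30.6 ± 1.13, followed by NOTCH3 at 24.2 ± 0.773, ADAM10 at 18.9 ± 0.00551 and HES1 at 18.0 ± 0.0644. ADAM17, NOTCH2, NOTCH1, DLL1, JAG1 and HEY1 followed, and NOTCH1 and DLL1, at 7.46 ± 0.486 and 7.45 ± 0.16, overlapped there. No other neighbours in either order overlapped. NOTCH1 was therefore seventh in shControl and ninth in shp63.

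The genes with the most similar pattern over the 4 libraries were sought among 11047 tested genes of at least 5 CPM on average, by the root mean square difference in centred log2 CPM. For NOTCH1 these were MMP13, a collagenase gene, at a difference of 0.0241, HCAR3, a hydroxycarboxylic acid receptor gene, at 0.0269, and DPP6 at 0.0331. MMP13 had 6.82 and 7.12 CPM in shp63 and 32.3 and 28.9 CPM in shControl. For ADAM10 they were BLNK, an adaptor protein gene, at 0.000634, SSR2, a subunit gene of the translocon-associated complex of the endoplasmic reticulum, at 0.00424, and NUCB1 at 0.00487. With only 4 libraries in 2 groups, such likeness describes the size of the group difference and the replicate gap.

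Beyond the members, 90 further NOTCH pathway genes in 9 lists were examined, of which 82 were tested. Of these 33 were higher, 26 lower and 23 not past the threshold, so that 72.0% were called, against 74.0% of all tested genes. Their median log2 fold change was 0.04. The share called was thus near the background, and the lists are given below as descriptions. Their counts have to be read against 36.9% of all tested genes higher and 37.1% lower.

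The remaining receptor and ligand genes had fewer reads than most members and moved both ways. NOTCH4, a receptor best known in endothelium, had 28 and 24 reads in shp63 and 26 and 19 reads in shControl (adjusted p = 0.364, edgeR). DLL4, an endothelial ligand gene, had 64 and 48 reads in shp63 and 13 and 13 reads in shControl, a log2 fold change of 2.19 at 1.09 ± 0.193 CPM in shp63 and 0.238 ± 0.00521 CPM in shControl (SD, n = 2 each). DLL3 had 3 reads or fewer in each library. DLK2, a non-canonical ligand-like gene, fell 7.52-fold, to 1.62 ± 0.0836 CPM in shp63 against 12.2 ± 0.304 CPM in shControl, and DNER, another non-canonical ligand gene, rose 2.94-fold. The summed endothelial markers given above were higher in the same shp63 libraries, and most of that sum was CDH5. Of those 5 markers 2 were higher and 1, VWF, was 3.57-fold lower. Whether DLL4 and these markers are linked was not tested.

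Genes of gamma-secretase, the complex that makes the second cut, were mostly higher. Of 6 tested subunit genes 4 rose, NCSTN and APH1B among them, 1 fell (APH1A) and 1 did not pass the threshold. Over all tested genes 36.9% rose and 37.1% fell. Beyond 1.5-fold (glmTreat) 3 of the 6 were called, all higher, against 22.7% of all tested genes. The median log2 fold change of the list was 0.60. NCSTN, encoding the substrate-binding subunit nicastrin, was at 318 ± 5.93 CPM in shp63 and 126 ± 1.61 CPM in shControl (SD, n = 2 each), 2.53-fold higher, with an adjusted p of 4.23e-20 (edgeR). APH1B, encoding a scaffold subunit, rose 2.59-fold. APH1A, encoding the other APH1 scaffold, was at 172 ± 1.61 CPM in shp63 and 183 ± 0.161 CPM in shControl, a log2 fold change of -0.09.

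Listed partners and inhibitors of the sheddases moved both ways. Of 12 tested genes of this mixed list 8 rose, 2 fell and 2 did not pass the threshold, where 36.9% of all tested genes rose. Their median log2 fold change was 0.51. FURIN, a convertase that trims the prodomains of both ADAMs and matures NOTCH receptors, was at 296 ± 8.24 CPM in shp63 and 123 ± 1.69 CPM in shControl (SD, n = 2 each), 2.40-fold higher. FRMD8, which stabilises the iRhom and ADAM17 complex, rose 2.12-fold. Of the 6 ADAM10 escort tetraspanin genes TSPAN10, TSPAN14, TSPAN15 and TSPAN17 rose, with log2 fold changes of 1.31, 0.65, 0.42 and 0.37. TSPAN5 and TSPAN33 did not pass the threshold, at -0.41 and -0.06. The secreted inhibitors divided. TIMP3, which inhibits ADAM17 and ADAM10, fell 2.35-fold, to 43.4 ± 0.447 CPM in shp63 against 102 ± 0.353 CPM in shControl. TIMP1, which inhibits ADAM10, rose 1.70-fold, to 80.2 CPM in shp63 against 47.2 CPM in shControl. The iRhom genes divided too, with RHBDF1 1.52-fold higher and RHBDF2 1.14-fold lower in shp63.

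Few genes of receptor glycosylation passed the test. Of 6 tested, POFUT1, which adds O-fucose to receptors, rose 1.09-fold, LFNG, a Fringe enzyme that modifies ligand choice, fell 1.29-fold, and 4 did not pass the threshold. With library totals as the scale POFUT1 was not called and POGLUT1, which adds O-glucose, was called lower, so that 0 were higher and 2 lower. Of 16 tested ubiquitin ligase and endocytosis genes 8 fell and 2 rose (ITCH and DTX3). Their median log2 fold change was -0.12. NEURL1B, a Neuralized ligase that acts on ligands, fell 2.18-fold, to 36.4 ± 0.574 CPM in shp63 against 79.2 ± 0.468 CPM in shControl (SD, n = 2 each), and NEDD4 fell 1.71-fold.

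In the nuclear complex, RBPJ, the DNA-binding partner of the released domain, was at 60.0 ± 1.29 CPM in shp63 and 67.9 ± 0.0812 CPM in shControl (SD, n = 2 each), a log2 fold change of -0.18 (adjusted p = 0.000548, edgeR). Of 9 tested coactivator genes, RBPJ included, 5 fell and 2 rose, with KAT2A and MAML1 lower by 1.31-fold and 1.29-fold and MAML3 and MAML2 higher by 1.94-fold and 1.11-fold. MAML2 was not called with library totals as the scale. Of 13 tested corepressor genes 5 rose and 4 fell, or 3 and 6 with library totals as the scale. TLE2, a Groucho-type corepressor gene, was at 81.7 ± 0.336 CPM in shp63 and 27.6 ± 0.100 CPM in shControl, 2.95-fold higher, while NCOR1 and TLE3 fell 1.24-fold and 1.22-fold.

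Other target genes gave a mixed picture beside HES1. NRARP, a direct target that feeds back on the receptor's intracellular domain, fell 2.18-fold, to 13.1 ± 0.577 CPM in shp63 against 28.6 ± 0.626 CPM in shControl (SD, n = 2 each; adjusted p = 4.32e-14, edgeR). HES4 was at 11.6 CPM in shp63 and 10.6 CPM in shControl (log2 fold change 0.13, adjusted p = 0.139, edgeR), and HES2 and HES6 did not pass the threshold either. HEYL and HEY2 had 2 reads or fewer in each library, HES7 had 7 or fewer and HES5 had 0. HES1 and NRARP therefore moved in opposite directions in the same libraries.

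Of 12 tested epithelial genes known to follow NOTCH in some tissues 9 rose and 3 fell, MYC and CCND1 among them. Their median log2 fold change was 0.65. Over all tested genes 36.9% rose and 37.1% fell. Beyond 1.5-fold (glmTreat) 6 of these genes were called higher and 2 lower. That stricter test called 22.7% of all tested genes, 1894 higher and 1491 lower. KRT10 was not called with library totals as the scale. MYC, whose product drives cell growth, was 4.17-fold lower, at 27.3 ± 0.269 CPM in shp63 and 114 ± 1.35 CPM in shControl (SD, n = 2 each), while SOX9 and DUSP1 rose 2.80-fold and 2.60-fold. Many of these genes also answer to other pathways. IVL, a cornified envelope gene, had a log2 fold change of 1.30, and KRT1 had 3 reads or fewer in each library. Both are among 7 keratinocyte differentiation markers, of which 3 were tested. Besides IVL these were KRT10, higher with a log2 fold change of 0.15, and TGM1, not called at -0.01. The other 4, KRT1 included, were under 1 CPM in all libraries.

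**Figure D4:**
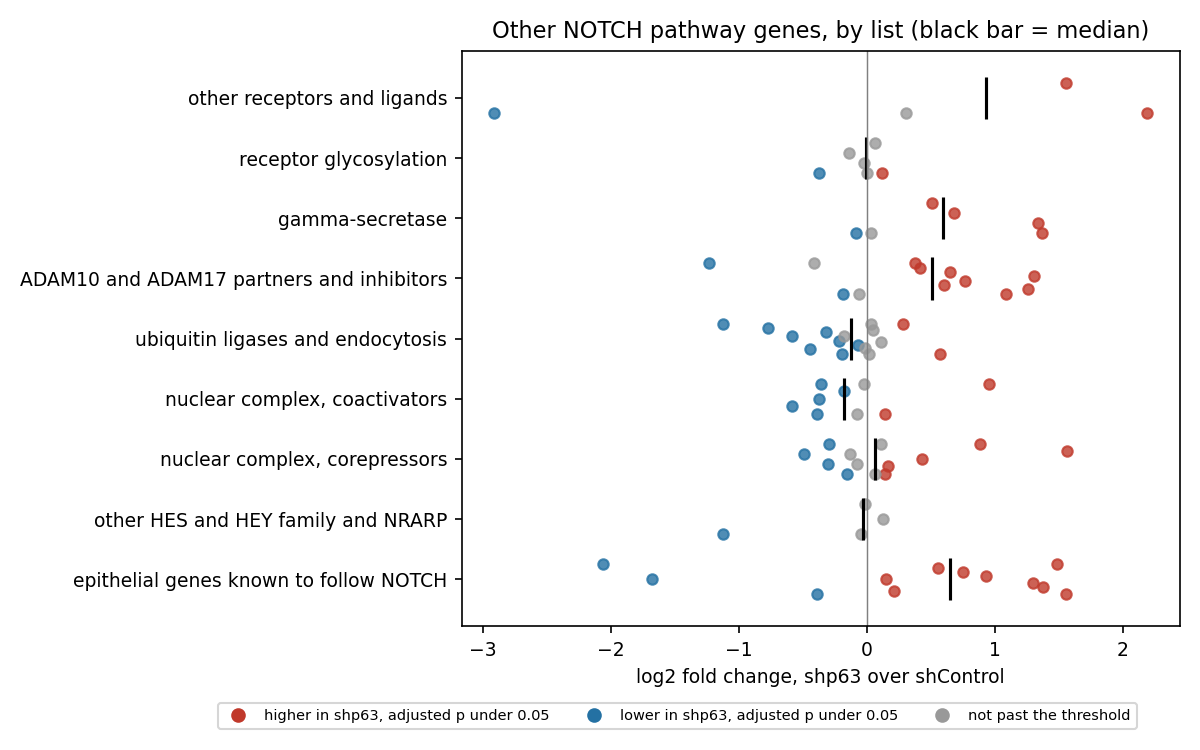
Log2 fold change, shp63 over shControl, of the 82 tested pathway genes outside the 10 members, 1 point per gene and 1 line per list, coloured by call, with a black bar at each list's median. The gamma-secretase list (median 0.60) and the list of ADAM10 and ADAM17 partners and inhibitors (median 0.51) lie mostly to the right of 0, and NRARP stands alone at -1.13 in its list.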

How the data were processed

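Poly(A) RNA was sequenced from 4 H226 samples, 2 shp63 and 2 shControl. The table the authors deposited holds raw read counts, as whole numbers, for each gene symbol. Per the series' design text, reads were aligned to GRCh37 with TopHat2 and counted with HTSeq, with DESeq2 as their test, and versions were TopHat2 2.0.13 and HTSeq 0.6.1 per the submitters' processing notes. The gene annotation and strand setting are not given in the sources used here. Counts were tested with edgeR 4.0.16 (R 4.3.3), with TMM factors and filterByExpr (minimum count 10, minimum total 15), which kept 14901 genes and left out 10468. A robust quasi-likelihood model of group alone was fitted, with Benjamini-Hochberg adjustment over all tested genes and 2 residual degrees of freedom. The SE of a log2 fold change is its size over the root of F. The script was tested on simulated data.

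The replicates of a group differed by more than sampling noise (chi-square per degree of freedom 3.60 in shp63 and 3.30 in shControl). They were therefore not taken as repeat counts of 1 library, and all 4 libraries were kept. That difference does not show that they were grown separately. Gene positions and transcript lengths come from GENCODE 44 on GRCh37 (MANE Select transcripts), and promoters from RefSeq on GRCh38.p14. The alternatives were other scalings and filters, DESeq2 1.42.0, limma-voom (limma 3.58.1), glmTreat, a replicate block and each library left out. All members are named; of each list, up to 2 called genes of smallest adjusted p per direction are named, plus NOTCH4, DLL3, DLL4, RBPJ, HEYL, HES5 and NRARP. Some genes under this rule are not reported here. Other named genes spell out small counts or were chosen with their values in view (the tetraspanins, TIMP1, RHBDF1, POGLUT1, IVL, KRT1, NOTCH2NL, IAH1 and FAM120B among them). The members and lists were chosen with earlier results of these data known.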

Additional observations from a re-analysis of the deposited data

How the results depend on the processing

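No member changed direction under any alternative run. NOTCH1, JAG1, DLL1 and ADAM10 kept their calls in all 13 alternatives. Against a 1.5-fold change (glmTreat), 4 members were called (3 lower, 1 higher), 26 of the other pathway genes (7 lower, 19 higher) and 3385 of all tested genes (1491 lower, 1894 higher); this test sets a higher bar by construction. It did not call NOTCH2 (-0.37), NOTCH3 (-0.61), JAG2 (-0.21), ADAM17 (-0.17), HES1 (0.59) or HEY1 (0.34). The HEY1 call was also lost with library totals (log2 fold change 0.25) and DESeq2 (0.34), and the cause was not tested; leaving out a library gave 0.29 to 0.38. With 1 library left out, 9 to 10 members were called, where the lone library of a group is assumed to vary like the other group. Over the same 4 fits the log2 fold change ranged from -2.25 to -2.11 for NOTCH1 and from 0.90 to 0.91 for ADAM10. The replicate numbers are shared between groups, but nothing shows that they pair the samples: replicate differences correlated at -0.112 across genes. With the replicate block 10 members and 10858 genes were called, and with the crossed pairing, added after the data were seen, 10 and 11387. Library totals moved the median of all genes to -0.10 on the log2 scale. At 50 to 55 reads per CPM, HEY1 (145 to 175 reads) had the fewest reads of the members, and whether depth limits its call was not tested.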
